A study of Mus musculus with 6 samples.

Results

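The genes described here are the Hox genes of the A, B, C and D clusters together with En1, En2, Pax3, Pax5, Pax7, Pax8, Gata2 and Gata3, which pattern the midbrain, hindbrain and spinal cord. They were taken by name: every non-control probe set of the array that is annotated with exactly 1 gene symbol of these families was included. This gave 62 of 45037 probe sets, for 41 genes, of which 33 are Hox genes with 48 probe sets. Pax2 was not analysed here, and Hox genes outside these 33 were not members. The arrays carried RNA from the ventral forebrain of mouse embryos at E13.5, in mid-gestation, called ventral telencephalon in the sample labels, from Olig2-/- knockout embryos and from Olig2+/+ wild-type embryos. Each replicate was RNA pooled from 3 brains. The sources used here do not give the strain, the part of Olig2 that the allele removes or where the dissection ended. Analysed here were 3 arrays per genotype: wild-type replicates 1, 4 and 5 and knockout replicates 2, 4 and 5.

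Hox genes encode homeodomain transcription factors that give segments of the hindbrain, spinal cord and trunk their identity along the head-to-tail axis, and their order on the chromosome follows the order of their expression domains. Paralogue groups with low numbers reach into the hindbrain, and those with high numbers mark the posterior trunk, tail and limbs. The forebrain develops in front of the Hox domains. En1, En2, Pax5 and Pax8 act at the isthmus, the signalling centre between midbrain and hindbrain, Pax3 and Pax7 mark dorsal neural tube, and Gata2 and Gata3 direct inhibitory neurons of the midbrain and other interneurons of the brainstem and spinal cord.

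The median over the non-control probe sets lay between 3.14 and 3.19 on the log2 scale. The deposited values were quantile-normalized, which brings array medians together, so close medians do not show that the samples were alike. The number of arrays limits the precision of every value. The labels do not say that the pools came from separate litters, so p-values measure the spread between these pools. Olig2 itself read 8.20, 8.22 and 8.42 on the wild-type arrays and 7.48, 7.53 and 7.76 on the knockout arrays. All knockout values lay below all wild-type values (log2 difference -0.69, limma SE 0.11, adjusted p = 0.511). Whether its probes fall inside the deleted sequence was not known. Of the forebrain list, Dlx1 and Dlx2, homeobox genes of the ganglionic eminences, and Isl1, a LIM homeobox gene of striatal neurons, were bright on every array, between 9.97 and 11.47. Of the 14 measured genes of that list, 0 were at the lowest level on all arrays. Those of lowest p were Gsx2, at 0.54, and Six3, at -0.89 (knockout minus wild type, limma adjusted p = 0.511 for both). Six3 was highest on wild-type replicate 1, and without that array its difference was -0.56.

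Nearly all of the patterning genes were at the floor of the measurement on every array. Background correction leaves each array with a lowest level at which values pile up. Here the floor was the commonest value of an array, 2.27 on all 6, and a value up to 0.1 above it was counted as at the floor. By this measure 55 of 62 member probe sets (88.7%) were at the floor on all 6 arrays, against 33.9% of all non-control probe sets. For 35 of the 41 genes every probe set was at the floor on every array. A total of 61 member probe sets were below their array's median on all 6 arrays. In pooled tissue, fewer cells of a type and less RNA per cell cannot be told apart, and a floor value gives only an upper bound on the RNA.

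**Figure D1:**
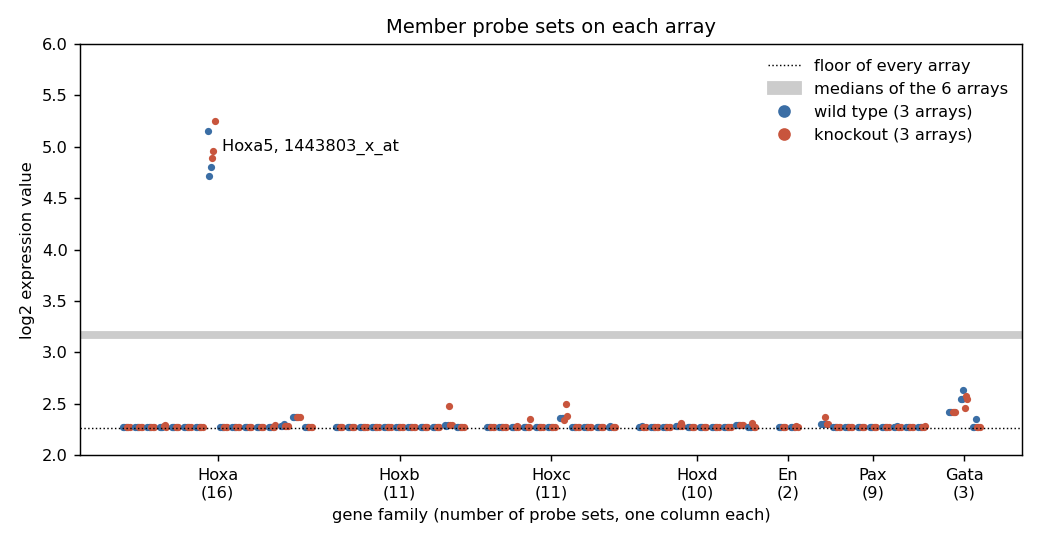
Log2 expression value (vertical axis) of the 62 member probe sets, one column each, on 3 wild-type arrays (blue points) and 3 knockout arrays (red points); the dotted line is the floor at 2.27 and the grey band spans the medians of the arrays. The points lie on or just above the floor in every family, except 1 probe set of Hoxa5, between 4.71 and 5.25.

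The Hox genes at the floor came from all 4 clusters. In the Hoxa cluster these were Hoxa2, Hoxa3, Hoxa4, Hoxa7, Hoxa9, Hoxa10 and Hoxa13. In the Hoxb cluster they were Hoxb1, Hoxb2, Hoxb3, Hoxb4, Hoxb5, Hoxb6, Hoxb7 and Hoxb13, and in the Hoxc cluster Hoxc4, Hoxc5, Hoxc8, Hoxc9, Hoxc10 and Hoxc13. All 10 probe sets of the Hoxd cluster were at the floor, for Hoxd1, Hoxd3, Hoxd8, Hoxd9, Hoxd10, Hoxd11, Hoxd12 and Hoxd13, with a highest value of 2.32. Of paralogue groups 1 to 4, which include the genes of hindbrain segments, 16 of 16 probe sets were at the floor on all arrays. In groups 5 to 8 the count was 13 of 15, and in groups 9 to 13 it was 15 of 17. The hindbrain gene Hoxa2, the most anterior of the Hox genes in its expression, and Hoxb1, which marks a single hindbrain segment, each read 2.27 on all 6 arrays.

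The genes of the isthmus and dorsal neural tube were at the floor as well. En1, needed for the midbrain and cerebellum, read 2.27 on every array, and its relative En2 read 2.27 or 2.28. Both probe sets each of Pax5, Pax7 and Pax8 were at the floor throughout. Gata3, which acts with and after Gata2 in inhibitory neurons, read 2.27 on 5 arrays and 2.36 on wild-type replicate 5. That was the highest value among the member probe sets counted as at the floor on every array. Of 62 member probe sets, 42 (67.7%) read the same value on all 6 arrays to within 0.001, against 25.3% of all non-control probe sets.

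The 1 exception with a clear signal was a probe set of Hoxa5, a Hox gene of the neck and upper trunk. Probe set 1443803_x_at read 5.15, 4.71 and 4.81 on the wild-type arrays (4.89 ± 0.23, SD, n = 3) and 4.89, 4.96 and 5.25 on the knockout arrays (5.03 ± 0.19, SD, n = 3). It was above the array median on all 6 arrays, and the groups overlapped. The other Hoxa5 probe set, 1448926_at, read 2.27 on all 6 arrays, so the 2 probe sets of this gene disagreed. Affymetrix gives the ending _x_at to probe sets with probes that also match other transcripts, so the assignment of this signal to Hoxa5 is uncertain.

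Another 3 probe sets lay above the floor limit on every array, but only just. Gata2, a zinc-finger factor of inhibitory and blood-forming lineages, read 2.42 on all 6 arrays at probe set 1428816_a_at. At its second probe set, 1450333_a_at, the wild-type arrays read 2.55, 2.55 and 2.63 and the knockout arrays 2.46, 2.58 and 2.55, with overlapping groups. Hoxa11, a gene of the limb and posterior trunk, read 2.373 on all 6 arrays, just past the limit of 2.37. A value repeated on every array shows no difference between samples in either direction.

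A further 3 probe sets passed the limit on some arrays, and all of these arrays were knockouts. Hoxb9, a gene of the thoracic trunk, read 2.28 to 2.29 on 5 arrays and 2.48 on knockout replicate 2. Pax3, at probe set 1420389_at, read 2.30 on 5 arrays and 2.38 on knockout replicate 2, while its other probe sets stayed at 2.27 on all 6. Hoxc6, at probe set 1427454_at, read 2.366 on each wild-type array, 2.35 on knockout replicate 2, 2.50 on knockout replicate 4 and 2.39 on knockout replicate 5, and its other probe sets read 2.27 throughout. In none of these probe sets were all knockout values above all wild-type values.

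**Figure D2:**
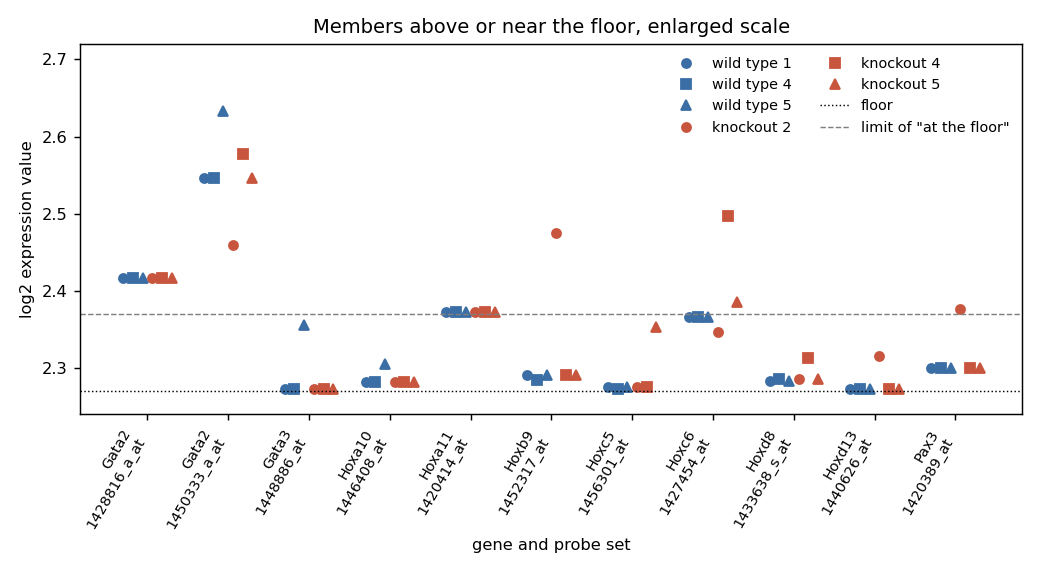
Log2 expression value (vertical axis, enlarged scale that does not start at 0) of the member probe sets above or close to the floor limit, other than 1443803_x_at; shape and colour give the array. Most probe sets repeat 1 value on most arrays, and single arrays stand above it: knockout replicate 2 for Hoxb9 at 2.48, knockout replicate 4 for Hoxc6 at 2.50 and wild-type replicate 5 for Gata3 at 2.36.

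Counted by array, 4 member probe sets were above the floor limit on each wild-type array, 6 on knockout replicate 2, 5 on knockout replicate 4 and 5 on knockout replicate 5. Of all non-control probe sets 61.7% to 62.2% were above it on each array. Only 1 member probe set, that of Hoxa5, was above log2 4, on every array. With the limit widened to 0.5 above the floor the count was 1 on each of the 6 arrays, so the counts differed only within a narrow band above the floor.

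The same was seen when each probe set was held against its own resting value, a measure chosen after the values were seen. For 61 of the 62 member probe sets, 3 or more arrays shared a value to within 0.001. A rise of more than 0.02 above that value occurred for 3 probe sets on knockout replicate 2 (Hoxb9, Pax3 and Hoxd13), for 3 on knockout replicate 4 (Hoxc6, Hoxd8 and Gata2), for 3 on wild-type replicate 5 (Gata2, Gata3 and Hoxa10) and for 1 on knockout replicate 5 (Hoxc5). On wild-type replicates 1 and 4 there was none. Of all 19815 probe sets whose shared value was below every array median, 5.13% to 5.98% rose by as much on an array, so the 4.92% of members on the arrays with 3 such rises is near the background. Rises of more than 0.1 were those of Hoxb9 by 0.18 on knockout replicate 2 and Hoxc6 by 0.13 on knockout replicate 4, 1 member each (1.64%), where 2.53% and 2.07% of all such probe sets rose by as much.

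Beside the values of Hoxb9 and Pax3, several mesenchyme genes, mainly of the matrix, were highest on knockout replicate 2, but others of the list were not. Col3a1, a fibrillar collagen gene, read 8.10 on that array and 4.04 to 6.20 on the others. Postn, a matrix protein gene, read 7.93 against 3.36 to 3.86, and Prrx1, a homeobox gene of head and limb mesenchyme, 6.15 against 4.86 to 5.18. Summed on the linear scale over the 15 listed mesenchyme genes, all of them measured, the signal was 969 on knockout replicate 2, 329 and 354 on the other knockout arrays and 271 to 372 on the wild-type arrays. Wild-type replicate 1 came next for Col3a1, at 6.20, for Col1a2, at 3.49 against 6.04 on knockout replicate 2, and for Lum, at 3.15 against 4.22. Foxc1, Dcn and Twist1 were highest on wild-type replicate 1, at 3.47, 3.04 and 2.64, and Foxd1 on wild-type replicate 5, at 6.52. Pdgfrb, a receptor gene of mesenchyme and pericytes, read 6.92, 6.73 and 6.93 on the wild-type and 7.33, 7.19 and 7.30 on the knockout arrays. Its groups did not overlap (log2 difference 0.41, limma adjusted p = 0.511), and the mean over its kept probe sets differed by 0.13. All 5 tested genes of the list had higher means in the knockout, with a median difference of 0.40, and none passed. Of all 22565 kept probe sets 11404 were higher, with a median of 0.0022. On knockout replicates 4 and 5 Postn read 3.56 and 3.36, Col3a1 4.04 and 4.09 and Prrx1 4.98 and 5.01. Their wild-type means were 3.64, 5.08 and 4.98, so the higher knockout means of these genes came mainly from knockout replicate 2. Foxd1 read 6.15 and 6.39 on the same arrays, against a wild-type mean of 5.99. Foxc2, Alx4 and Twist2 of that list were at 2.27 on every array. The part of such cells in the Hoxb9 and Pax3 values was not tested. Hoxb9 and Pax3 passed the floor limit on knockout replicate 2 only, so leaving that array out puts both at the floor by construction. Without it 57 of 62 member probe sets were at the floor on all arrays.

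**Figure D3:**
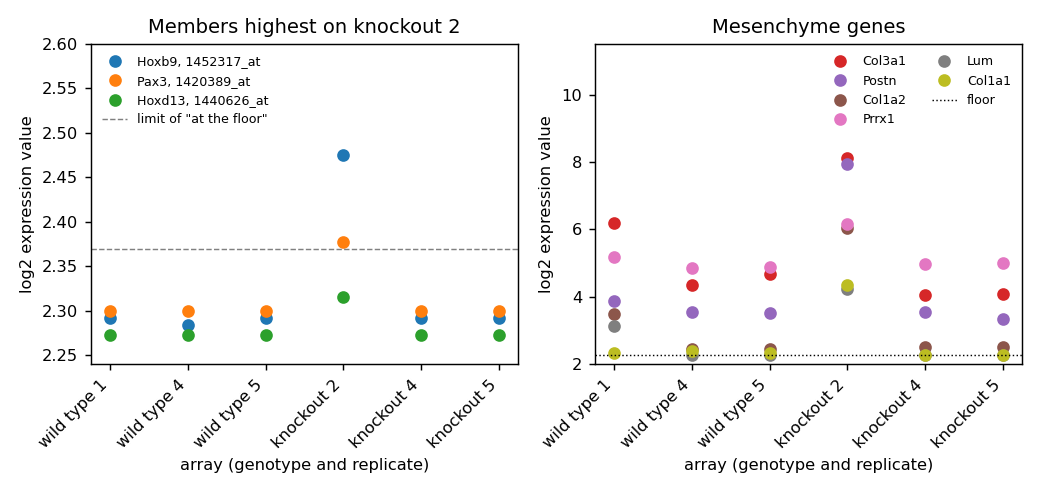
Log2 expression value on each of the 6 arrays for 3 members (left, enlarged scale that does not start at 0) and 6 of the 15 listed mesenchyme genes (right, wider scale). Only genes that were highest on knockout replicate 2 are shown. Foxc1, Dcn, Twist1 and Foxd1 of the list, highest on wild-type arrays, are left out. On knockout replicate 2 Hoxb9 reached 2.48 and Pax3 2.38, and Col3a1 reached 8.10.

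Other marker lists were read in the same way. Of the skeletal muscle list, whose precursors use Pax3 and Pax7, 9 of 12 genes were at the floor on all arrays, among them the muscle regulators Myod1, Myf5 and Myog. The summed linear signal of the list was 67.7 to 70.5 on the knockout and 68.2 to 73.8 on the wild-type arrays. Of its genes above the floor, Mylpf read 3.74 on knockout replicate 2 and 3.53 on each other array. Acta1 was highest on wild-type replicate 1, at 3.72, and Tnnt1 on wild-type replicate 4, at 2.56. Of the neural crest list, where Pax3 also acts, 8 of 10 genes were measured. At the floor on all arrays were 3, among them Foxd3, an early crest regulator. Ednrb read 9.06 to 9.43, Ets1 6.52 to 6.91, Tfap2a 3.20 to 3.60 and Sox10 2.74 to 3.08. Ets1 and Tfap2a were higher in the knockout without overlap, as 16.2% of all kept probe sets did not overlap. Their log2 differences were 0.22 and 0.20 (limma adjusted p = 0.511 for both). Sums for the crest list, mostly from Ednrb, were 691 to 798 on the knockout and 751 to 820 on the wild-type arrays. Of the erythroid list 9 of 10 genes were measured, and Gata1, the red-cell relative of Gata2, read 2.29 on all 6 arrays, although the embryonic globin Hbb-y read 13.94 to 14.11. Sums for that list, mostly from Hbb-y, were 17656 to 19227 on the knockout and 16685 to 19558 on the wild-type arrays. The endothelial list, whose cells can express Gata2, had all 10 genes measured and none at the floor on all arrays, with sums of 255 to 266 and 236 to 282. For the eye and optic stalk list (9 of 10 measured) the sums were 142 to 179 and 148 to 153, with the pigment genes Dct and Pmel at the floor. Vax1, at 6.53 to 6.87, made up most of these sums. The choroid plexus list (8 of 8 measured) varied most, from 332 to 1347 and 367 to 2266, carried by Ttr, which was highest on wild-type replicate 4 at 10.96.

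A low reading was also found for a gene of this tissue. Nkx2-1, which specifies the medial ganglionic eminence and is a textbook gene of the ventral telencephalon, read 2.69 to 3.36 at its single probe set, although Lhx6 and Lhx8, genes of the same territory, read 8.22 to 9.10 and 9.91 to 10.25. A low reading at a single probe set therefore does not show that RNA is absent.

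No member passed the test for a difference between the genotypes. Of the 62 member probe sets only 1443803_x_at passed the filter on dim probe sets, a value above the array median on at least 3 arrays, which kept 22565 probe sets. Its log2 difference, knockout minus wild type, was 0.14 (limma SE 0.15, 95% interval -0.24 to 0.52, adjusted p = 0.692). Among all kept probe sets 0% passed limma's adjusted threshold of 0.05, 9.40% had an unadjusted p below 0.05 (4.98% higher and 4.42% lower in the knockout) and 16.2% had groups that did not overlap. Fitted without the filter, 0 of 62 members passed limma's adjusted threshold, 0 had an unadjusted p below 0.05 where 4.32% of all 45037 probe sets did (2.36% higher, 1.95% lower), and 0 had groups that did not overlap where 8.74% did. The differences of members other than the Hoxa5 probe set were at most 0.064 in size, and 42 were under 0.001. Values held at a floor cannot show a difference below it, so these counts bound nothing about RNA under the detection level.

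The upstream regions of the members are shown for 3 genes, Hoxa5, En1 and Gata2, because all their values, apart from 1 Hoxa5 probe set, lay at or near the floor while their starts are rich in CG pairs. The RefSeq table of build GRCm38.p6 held 25 of the 41 genes with 28 starts. Each stretch is the 250 bases before an annotated start, 5′ to 3′ on the strand of the gene, with every CG in capitals.
Hoxa5, chr6:52204588-52204837, - strand: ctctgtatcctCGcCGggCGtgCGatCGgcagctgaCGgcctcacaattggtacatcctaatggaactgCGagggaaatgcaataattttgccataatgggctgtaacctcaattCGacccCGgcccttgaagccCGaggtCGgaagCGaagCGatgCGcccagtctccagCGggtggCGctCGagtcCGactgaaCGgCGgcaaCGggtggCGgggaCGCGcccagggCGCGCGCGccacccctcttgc
En1, chr1:120602237-120602486, + strand: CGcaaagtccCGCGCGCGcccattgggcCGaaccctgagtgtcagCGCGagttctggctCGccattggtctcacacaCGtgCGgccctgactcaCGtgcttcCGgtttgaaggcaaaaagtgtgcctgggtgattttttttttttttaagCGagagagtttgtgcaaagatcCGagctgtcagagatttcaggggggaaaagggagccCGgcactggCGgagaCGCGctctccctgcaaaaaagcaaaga
Gata2, chr6:88198414-88198663, + strand: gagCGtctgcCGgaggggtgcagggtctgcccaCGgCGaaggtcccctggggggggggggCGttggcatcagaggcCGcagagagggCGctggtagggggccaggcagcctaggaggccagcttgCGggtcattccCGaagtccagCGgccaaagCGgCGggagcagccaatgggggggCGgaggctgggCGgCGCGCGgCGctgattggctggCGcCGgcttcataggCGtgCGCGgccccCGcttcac
The motif CG, which reads the same on both strands, occurred 28 times for Hoxa5, 19 times for En1 and 24 times for this start of Gata2. Over the 28 member starts the middle pair of counts was 13 and 14, and counts ran from 2 at a start of Hoxd11 to 35 at Hoxa13, against a median of 6 over all 32841 starts of the table. At least 10 occurred in 19 of 28 member starts (67.9%) and in 37.8% of all starts. The motif TATAAA, on either strand, was in 2 member starts, of Hoxa10 and Hoxd13, and in 12.4% of all starts. These are descriptions of sequence, and methylation was not measured.

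Cofactors that bind DNA together with Hox proteins were read well above the floor, while 29 of the 33 Hox genes were at it throughout. Of the list of Hox cofactors and regulators, 18 of 20 genes were measured, 8 passed the filter and 6 were at the floor on all arrays. Meis2 read 10.84 to 11.34, Pbx3 10.47 to 10.86 and Pbx2 8.27 to 8.46, all TALE homeodomain cofactors that also act in the forebrain without Hox partners. At the floor were Cdx1 and Cdx4, activators of posterior Hox genes, Evx1 and Evx2, which lie beside the Hox clusters, and Cyp26a1 and Cyp26b1, which break down retinoic acid. Cdx2 read 2.46 on knockout replicate 5 and 2.34 on the other arrays. Aldh1a2 read 2.49 and 2.47 on knockout replicates 2 and 5 and 2.31 on the other arrays. For neither did all knockout values lie above all wild-type values. Gdf11 read 2.41 to 2.73 and Pbx4 2.41 to 2.64. None of the 8 tested genes passed limma's adjusted threshold, and 2 had an unadjusted p below 0.05. The difference of Meis2 was 0.32 (limma adjusted p = 0.511), with a mean over its kept probe sets of 0.04, and that of Pknox1, another TALE gene, was -0.61 (adjusted p = 0.511), with a mean of -0.33. The median difference of the 8 genes was -0.06, against 0.00 over all kept probe sets.

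Partners of the isthmus genes split into those at the floor and those above it. Fgf8 and Wnt1, the signals of the isthmic organiser, read 2.27 on all arrays, and Lmx1a, Lmx1b and Cnpy1 were at the floor too. Otx2, a homeobox gene of both forebrain and midbrain, read 7.91 to 8.47, Fgf15 7.19 to 7.54 and Dusp6, a feedback inhibitor of FGF signalling, 6.68 to 7.56. All 14 genes were measured and 8 tested, of which none passed and 3 had an unadjusted p below 0.05. Gbx2, which sets the hindbrain side of the isthmus and also marks thalamic neurons, read 6.93, 7.28 and 6.97 on the wild-type and 5.14, 5.84 and 6.07 on the knockout arrays (log2 difference -1.38, limma SE 0.25, adjusted p = 0.511). Its groups did not overlap. For Spry2, an FGF feedback gene, the difference was 0.43 (limma adjusted p = 0.511), and 0.28 without knockout replicate 4. For its relative Spry1 it was -0.48 (limma adjusted p = 0.511), with overlapping groups. The list's median difference was 0.05.

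Of the hindbrain and spinal cord list, 10 of 13 measured genes were at the floor on all arrays. They included Egr2, which defines hindbrain segments, Phox2a of brainstem motor neurons, Atoh1 of the rhombic lip and Mnx1 of spinal motor neurons. Dbx1, which is also expressed in the forebrain, was the one gene that passed the filter and read 4.83 to 6.11, with a log2 difference of 0.03 (limma adjusted p = 0.98). Ptf1a read 2.90 to 2.98, highest on wild-type replicate 1, and Barhl1 2.31 to 2.71, highest on wild-type replicate 5. Dbx1 was highest on wild-type replicate 5 too, and Egr2 read 2.36 there and 2.27 to 2.28 on the other arrays. The summed linear signal of the list was 90.9, 102 and 132 on wild-type replicates 1, 4 and 5. On knockout replicates 2, 4 and 5 it was 94.1, 107 and 118. The spread of these sums was carried mainly by Dbx1. In the same order of arrays Dbx1 read 4.83, 5.35 and 6.11 in the wild type and 5.04, 5.52 and 5.82 in the knockout.

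Among genes of midbrain neurons, 4 of 13 measured were at the floor: Foxa2, Pitx3, Slc6a3 and Sox14, the first 3 genes of the dopaminergic lineage. Ddc, which makes dopamine and serotonin from their precursors, read 7.33 to 7.76, Nr4a2 7.28 to 7.82 and Lhx1 6.15 to 7.09. None of 7 tested genes passed and 1 had an unadjusted p below 0.05. The difference of Nr4a2 was 0.35 (limma adjusted p = 0.511), but the mean over its kept probe sets was -0.0011, and that of Ddc was 0.22 (adjusted p = 0.511). Foxa1 read 4.12, 3.00 and 3.96 on the wild-type and 2.93, 3.08 and 3.34 on the knockout arrays. Its groups overlapped (log2 difference -0.57, limma adjusted p = 0.522). The list's median difference was 0.22, with 4 tested genes higher and 3 lower in the knockout.

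Partners of Gata2 and Gata3 were partly present. Tal1 and Tal2, which form complexes with Gata factors, were at 2.50 to 3.43 and 2.70 to 2.71, each highest on wild-type replicate 5. A total of 5 of 12 genes, among them Gata1, Gata4, Gata5 and Gata6, were at the floor on all arrays. The LIM-only adaptor genes Lmo1 (7.74 to 8.57) and Lmo2 (6.57 to 7.31) and their binding partner Ldb1 (7.56 to 7.80) were above it. None of 4 tested genes passed and 3 had an unadjusted p below 0.05. The difference of Lmo1 was 0.46 and that of Zfpm2, a Gata cofactor, -0.42 (limma adjusted p = 0.511 for both). The mean over the kept probe sets of Zfpm2 gave -0.22. The list's median difference was -0.26.

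**Figure D4:**
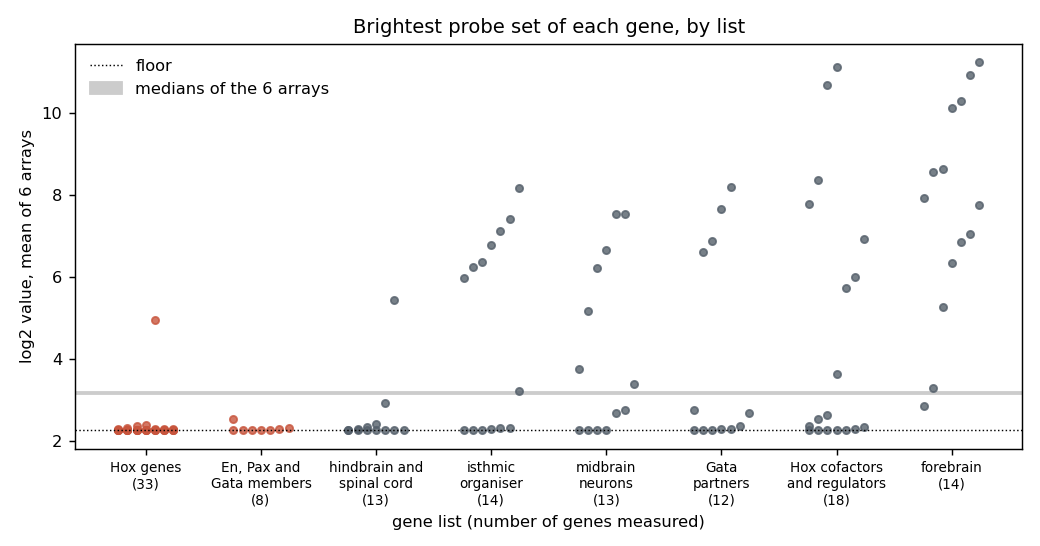
Mean log2 value over the 6 arrays (vertical axis) of the brightest probe set of each gene, in the member families (red) and in 6 lists of related or forebrain genes (grey), with the number of genes measured; brightness of different probe sets is no measure of relative abundance. The members, apart from Hoxa5, and most hindbrain and spinal cord genes lie at or near the floor of 2.27. No forebrain gene is at the floor on all arrays, and the lowest of them is Nkx2-1, at 2.69 to 3.36.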

How the data were processed

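The authors deposited 1 table of log2 values for the 6 arrays. According to the series' design text, GCOS and the MAS 5.0 algorithm handled the scans, and GCRMA then made quantile-normalized log2 summaries of each probe set; the sources used here do not give versions. A detection filter in that text is not visible in the table of 45101 probe sets, 64 of them controls. The text gives 5 replicates per genotype, of which 3 were analysed here. The background step of GCRMA leaves the floor described above, which hides differences among dim probe sets.

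The platform annotation gave 1 symbol to 34945 probe sets, several to 932 and none to 9160. The genotype test was limma 3.58.1 under R 4.3.3, two-sided and without a replicate block, adjusted by Benjamini-Hochberg over all probe sets tested, and it was tested on simulated data. A listed gene was read at its brightest probe set. All members were accounted for. Of each related list the 3 brightest genes and up to 2 of lowest p were to be named; for the cell-type lists other genes were named, and further names were added, after values were seen. Alternatives were other filters, floor limits, normalizations, variance models, weights, a block and leaving out arrays. Members and lists were chosen with earlier results of these data known.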

Additional observations from a re-analysis of the deposited data

Results flagged for a closer look

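Among probe sets left out of the members because they are annotated to several genes, 1452493_s_at is assigned to Hoxb8 and Hoxb7 of the Hoxb cluster. It read 2.6332 on knockout replicate 2 and 2.27 on each of the other 5 arrays. It was picked out as a signal in data outside the comparisons, above its level on the wild-type arrays. The probe set annotated to Hoxb7 alone, 1427494_at, read 2.27 on all 6 arrays and did not show this rise. Of the 19815 probe sets whose shared value was below every array median, 2.53% rose by more than 0.1 on knockout replicate 2. On the same array Hoxb9, of the same cluster, read 2.48, and the summed mesenchyme signal was 969. The part of other cells in these values was not tested.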

How the results depend on the processing

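The count of members past limma's adjusted threshold was 0 in every alternative run, and no probe set of the whole table passed in any of them. The replicate block, with a factor for the replicate number, also gave 0. Wild-type replicate 1 and knockout replicate 2 share no number with the other genotype. Genotype differences in that fit therefore rest on replicates 4 and 5. There the Hoxa5 probe set had a difference of 0.34 with an unadjusted limma p of 0.049 (adjusted p = 0.56). In no other run was a member's unadjusted p below 0.05. Both genotypes have a replicate 4 and a replicate 5. The numbers were not taken as pairs because the labels do not say that they mark a shared litter or day. The correlation of deviations from the genotype means was -0.29 for number 4 and 0.32 for number 5. Between arrays of unlike number it ran from -0.36 to 0.38, so these few correlations cannot settle the pairing. The block changed the count at unadjusted p from 2121 to 2014. That count was 3491 with array weights, and 963 with gene means, where only 10630 features were tested. It was 3490 without wild-type replicate 4, and 1402, 1205 and 1121 without wild-type replicate 1, knockout replicate 4 and knockout replicate 5. The count of members at the floor on every array was 50 with a limit of 0.03, 61 with 0.5, 55 with repeated quantile normalization and 55 to 57 with an array left out. Above the floor, the count was 1 on every array, in place of 4 to 6, with a limit of 0.5, above the array median and above log2 4. With a limit of 0.03 it was 5, 5 and 7 on wild-type replicates 1, 4 and 5, and 8, 6 and 6 on knockout replicates 2, 4 and 5. Against the shared value of each probe set, it was 0 on wild-type replicates 1 and 4, 3 on wild-type replicate 5 and on knockout replicates 2 and 4, and 1 on knockout replicate 5. The difference of the Hoxa5 probe set ranged from 0.034 to 0.34 over all alternatives. Of 210 values of 15 named genes under alternatives, 204 kept their direction. Those that turned were Nr4a2 with the mean of its kept probe sets (-0.0011) and Dbx1 with array weights (-0.25), with the replicate block (-0.061) and in 3 of 6 fits with an array left out (-0.27, -0.0078 and -0.15 without wild-type replicate 1, wild-type replicate 4 and knockout replicate 5); over all 6 it ran from -0.27 to 0.37. Of these genes, Gsx2, Six3, Spry1 and Pdgfrb were added after the data were seen. The causes were not tested.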

Other observations

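Of antisense transcripts of the Hox clusters Hoxb5os read 2.56 to 2.99 over the 6 arrays, with 2.56, 2.99 and 2.93 in the wild type and 2.68, 2.76 and 2.75 in the knockout. The groups overlapped, and the probe set of Hoxb5 itself read 2.27 on all 6 arrays. Both probe sets each of Hoxd3os1 and Hoxa11os were at the floor throughout.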
